A study of Mus musculus with 8 samples.

Results

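The genes described here are 10 that megakaryocytes and platelets are known for, namely Itga2b, Itgb3, Gp1bb, Gp9, Gp5, Treml1, Pf4, Vwf, Nfe2 and Plek. They were chosen by name from the 24015 genes of the deposited count table, and all 10 were among the 13908 genes with enough counts to be tested. RNA was measured with Smart-seq2, a PCR-based method for small numbers of cells, in 2 cell types sorted from mouse embryos at E11.5. The tissue was the aorta-gonad-mesonephros region together with the vitelline and umbilical arteries. Hematopoietic clusters, the groups of blood-forming cells on the wall of the dorsal aorta and of these arteries, were taken by the gate Ter119- VE-Cadherin+ Kit+. Endothelium was taken by the gate Ter119- VE-Cadherin+ Kit- CD41- CD45-. Both were collected from wild type and Sl/Sl embryos, the latter homozygous for the Steel deletion that removes the gene of Kit ligand, Kitl, from every cell. Each of the 4 groups (2 cell types in 2 genotypes) had 2 libraries, numbered 1 and 2, each made from a small number of sorted cells, and embryos of 1 genotype were pooled for the sorts. Which of the study's sorting experiments a numbered library came from is not given in the sources used here.

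Megakaryocytes are the large cells that release platelets, the cell fragments that plug damaged vessels. Their surface carries the integrin of Itga2b (CD41) and Itgb3, which binds fibrinogen, and the glycoprotein Ib-IX-V complex, which binds von Willebrand factor. Their granules store chemokines and clotting proteins, and their late genes are switched on by transcription factors such as NF-E2. CD41 also marks the earliest blood cells of the embryo, and von Willebrand factor is made by endothelial cells as well as by megakaryocytes, so not every gene of the group is particular to the lineage. CD41 was itself used in the sort, since endothelial cells with it at the surface were left out, and a level of Itga2b in endothelium is read with that in view.

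The libraries held between 8933236 and 13428214 counts on genes. Reads of Kitl numbered 1250 and 923 in the wild type endothelial libraries but 6 and 2 in the Sl/Sl ones. The wild type cluster libraries held 110 and 0 and the Sl/Sl cluster libraries 1 and 3, so 1 wild type cluster library had none. The hematopoietic markers (10 genes) summed to between 1379 and 2494 CPM, which are counts scaled to a common library total after correction by trimmed mean of M values (TMM), in clusters and between 149 and 179 in endothelium. The endothelial markers (10 genes) summed to between 5948 and 6747 CPM in endothelium and between 429 and 2800 in clusters. The hematopoietic list holds Kit and Ptprc (CD45), which the endothelial gate left out. The endothelial list holds Cdh5 (VE-Cadherin), part of both gates. The sums are therefore partly set by the sort. Kit had a mean of 80.1 CPM in wild type endothelium and 65.4 in that of Sl/Sl embryos. In such pools of cells, fewer cells of a type and less RNA per cell cannot be told apart.

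The surface integrin came first. Itga2b (mm9 chr11:102314611-102331197, minus strand) had 22.0 and 13.1 CPM in wild type clusters, 8.95 and 18.9 in Sl/Sl clusters, 4.21 and 4.44 in the endothelium of wild type and 9.54 and 10.7 in that of Sl/Sl embryos. The levels of the 2 cell types overlapped, and the lowest cluster library lay under both Sl/Sl endothelial libraries. Itgb3 (chr11:104469314-104531785, plus strand), the partner chain of CD41 and also a chain of the vitronectin receptor on other cells, had 39.98 and 29.3 CPM in wild type clusters, 54.7 and 68.1 in Sl/Sl clusters, 1.59 and 11.51 in the endothelium of wild type and 4.73 and 0.715 in that of Sl/Sl embryos. Every cluster library was above every endothelial one.

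The glycoprotein Ib-IX-V complex was represented by its beta chain Gp1bb, by Gp9, and by Gp5, the subunit that thrombin cleaves. Gp1bb (chr16:18620412-18622496, minus strand) had 12.3 and 78.5 CPM in wild type clusters, 12.4 and 69.3 in Sl/Sl clusters, 0.795 and 0.808 in the endothelium of wild type and 0.350 and 0.119 in that of Sl/Sl embryos. Within each genotype the cluster library numbered 2 was the high one. Gp9 (chr6:87728130-87729756, plus strand) had 11.2 and 5.60 CPM in wild type clusters and 28.6 and 27.2 in Sl/Sl clusters, and in endothelium its counts were only 3 and 5 (wild type) and 1 and 0 (Sl/Sl). Unlike Gp1bb, it was not raised in the cluster libraries numbered 2. Gp5 (chr16:30307771-30310867, minus strand) had 0 and 158 counts in wild type clusters, 1 and 207 in Sl/Sl clusters, 3 and 2 in the endothelium of wild type and 1 and 1 in that of Sl/Sl embryos. It was therefore at the level of endothelium in both cluster libraries numbered 1, and its 0 counts there allow up to 3. The exons of Gp1bb share 593 bases, on the same strand, with a neighboring gene that had at most 10 counts in a library, while the other 9 genes overlap no gene of the table.

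The granule and late platelet genes came next. Treml1 (chr17:48499241-48506501, plus strand), a receptor stored in platelet granules, had 4 and 283 counts in wild type clusters and 40 and 810 in Sl/Sl clusters, against 2, 4, 1 and 0 in endothelium. Pf4 (chr5:91201461-91202409, plus strand), the platelet factor 4 chemokine, had 23.6 and 433 CPM in wild type clusters, 111 and 689 in Sl/Sl clusters, 12.6 and 5.45 in the endothelium of wild type and 0.875 and 2.14 in that of Sl/Sl embryos. Its lowest cluster library was above its highest endothelial library by less than its 2 wild type cluster libraries differed from each other. Plek (chr11:16871209-16908721, minus strand), pleckstrin, a kinase substrate of platelets and leukocytes, had 118 and 263 CPM in wild type clusters, 67.3 and 218 in Sl/Sl clusters, 14.1 and 2.22 in the endothelium of wild type and 0.963 and 3.45 in that of Sl/Sl embryos. The cell types did not overlap for Plek either.

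Nfe2 and Vwf completed the group. Nfe2 (chr15:103078649-103085847, minus strand), the lineage-restricted subunit of NF-E2, had 68.9 and 58.4 CPM in wild type clusters, 115 and 52.3 in Sl/Sl clusters, 0.874 and 1.62 in the endothelium of wild type and 3.50 and 0.476 in that of Sl/Sl embryos. All 4 cluster libraries were far above the 4 endothelial ones. Vwf (chr6:125502966-125636697, plus strand), von Willebrand factor, went the other way, with 153 and 52.6 CPM in wild type clusters, 202 and 81.2 in Sl/Sl clusters, 663 and 513 in the endothelium of wild type and 871 and 615 in that of Sl/Sl embryos. It was the only one of the 10 genes for which every endothelial library was above every cluster library.

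**Figure D1:**
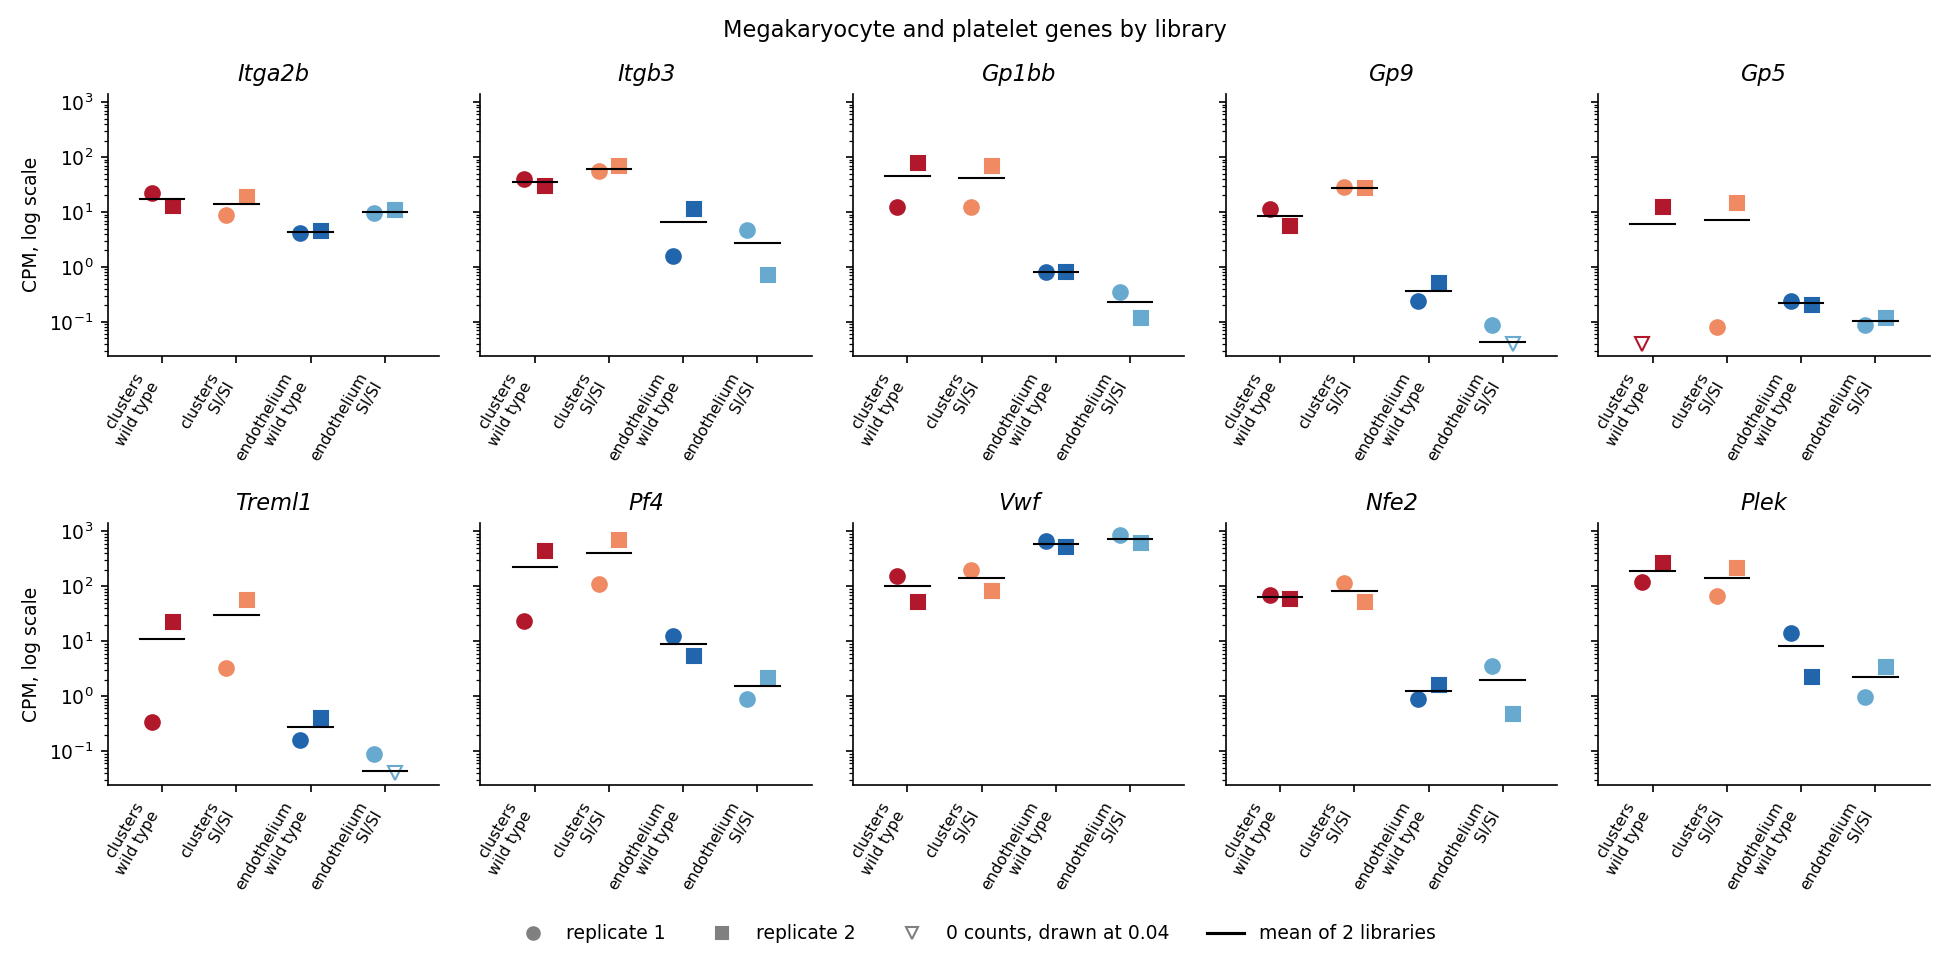
CPM of each of the 10 genes (log scale, TMM-scaled totals) in the 8 libraries, by cell type and genotype, with circles for replicate 1, squares for replicate 2, open triangles for libraries with 0 counts and a line at the mean of 2 libraries. Vwf is higher in endothelium, from 513 CPM, than in clusters, up to 202 CPM, and Pf4 ranges from 23.6 to 689 CPM within clusters.

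Levels of different genes were set side by side per exon length, as RPKM on plain totals. In clusters Pf4 was the highest, with a median of 473 RPKM over 4 libraries and a range from 43.3 to 1250. It was followed by Plek (median 43.8 RPKM, range 16.6 to 65.3), Nfe2 (40.2, 33.4 to 70.3), Gp9 (25.4, 7.07 to 35.8), Gp1bb (20.9, 6.04 to 38.5), Vwf (14.2, 6.09 to 23.3), Treml1 (10.3, 0.298 to 48.3), Itgb3 (8.55, 5.18 to 12.6), Itga2b (4.88, 2.65 to 6.90) and Gp5 (2.88, 0 to 7.01). The ranges of every pair of neighbors in this order overlapped, so the order is a description of medians. Itga2b, the gene of the surface marker CD41, was thus among the genes of lowest level in clusters. In endothelium the order was led by Vwf, with a median of 69.5 RPKM (range 54.8 to 94.7), then Pf4 (6.09, 1.43 to 20.9) and Itga2b (1.94, 1.20 to 2.93), with a median under 1 RPKM for each of the other 7 genes. The range of Vwf did not overlap that of Pf4, the next gene.

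The first comparison asked how the 2 cell types differ, endothelium against clusters with both genotypes combined (4 libraries against 4). Of the 10 genes, 7 were lower and 1 was higher in endothelium in edgeR's quasi-likelihood test at a Benjamini-Hochberg adjusted p under 0.1, where 16.6% of all genes tested passed (8.12% lower and 8.48% higher). Nfe2 was 45.9-fold lower (log2 fold change -5.52, SE 0.68, adjusted p = 0.00153), and Plek 39.0-fold lower (-5.29, SE 0.74, adjusted p = 0.00286). Gp1bb was 94.9-fold lower (-6.57, SE 0.97), Gp9 103-fold (-6.68, SE 1.08), Pf4 82.6-fold (-6.37, SE 1.02), Treml1 141-fold (-7.13, SE 1.69) and Itgb3 10.9-fold (-3.44, SE 0.79), with edgeR adjusted p-values of 0.00352, 0.00558, 0.00533, 0.0281 and 0.0246. Vwf was 5.48-fold higher in endothelium (2.45, SE 0.39, adjusted p = 0.00497). The other 2 genes did not pass, since Itga2b had a log2 difference of -1.24 (SE 0.67, adjusted p = 0.280) and Gp5 one of -5.37 (SE 2.20, adjusted p = 0.159). Libraries of the cell types did not overlap for 6 genes that were lower in endothelium, where 9.57% of all genes tested did so, and for Vwf in the other direction, where 10.1% did. Treml1 overlapped, at 0.345 CPM in wild type clusters replicate 1 and 0.404 in wild type endothelium replicate 2. Gp1bb, Gp9, Gp5 and Treml1 had at most 10 counts in any endothelial library. They entered the test through clusters, so a call on them could hardly take the other direction.

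The folds of the rarest genes rest on few endothelial counts. Gp9 had 940 counts summed over the cluster libraries against 9 in endothelium, a ratio per total of 86.7 with a 95% interval, for counting error only, of 45.5 to 190.2. Treml1 had 1137 against 7 counts (134.8-fold, 65.2 to 336.2) and Gp5 366 against 7 (43.4-fold, 20.9 to 109). These intervals pool the libraries of a cell type and take no account of their spread. The 366 counts of Gp5 in clusters came, but for 1, from the libraries numbered 2. Both cluster libraries numbered 2 were also left out, a choice made after seeing the data, so each cluster group kept a single library. The log2 fold change was then -4.81 for Gp1bb and -3.10 for Treml1, and neither call held. Without Sl/Sl clusters replicate 2 alone, Treml1 had an adjusted p of 0.136, and without wild type clusters replicate 1, Gp5 passed (-5.87, adjusted p = 0.0903). Leaving out wild type clusters replicate 2 moved the log2 fold change of Gp5 to -0.82, of Treml1 to -4.68 and of Pf4 to -4.76.

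Taken by genotype, the same cell type comparison passed for 5 of the 10 genes in wild type libraries (8.24% of all genes) and for 6 in Sl/Sl libraries (2.83%). Gp1bb, Pf4, Plek and Nfe2 were lower and Vwf higher in endothelium in both, and Gp9 was lower in Sl/Sl with a log2 fold change of -8.89 (SE 1.69, edgeR adjusted p = 0.0405) against -4.47 (SE 1.35, adjusted p = 0.102) in wild type. The endothelial counts of Gp9 were 1 and 0 in Sl/Sl and 3 and 5 in wild type. They are too low to fix the size of either value, and Gp9 entered the test through clusters. A call in one genotype and not in the other is no test of a difference between them, which the interaction with genotype gives.

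**Figure D2:**
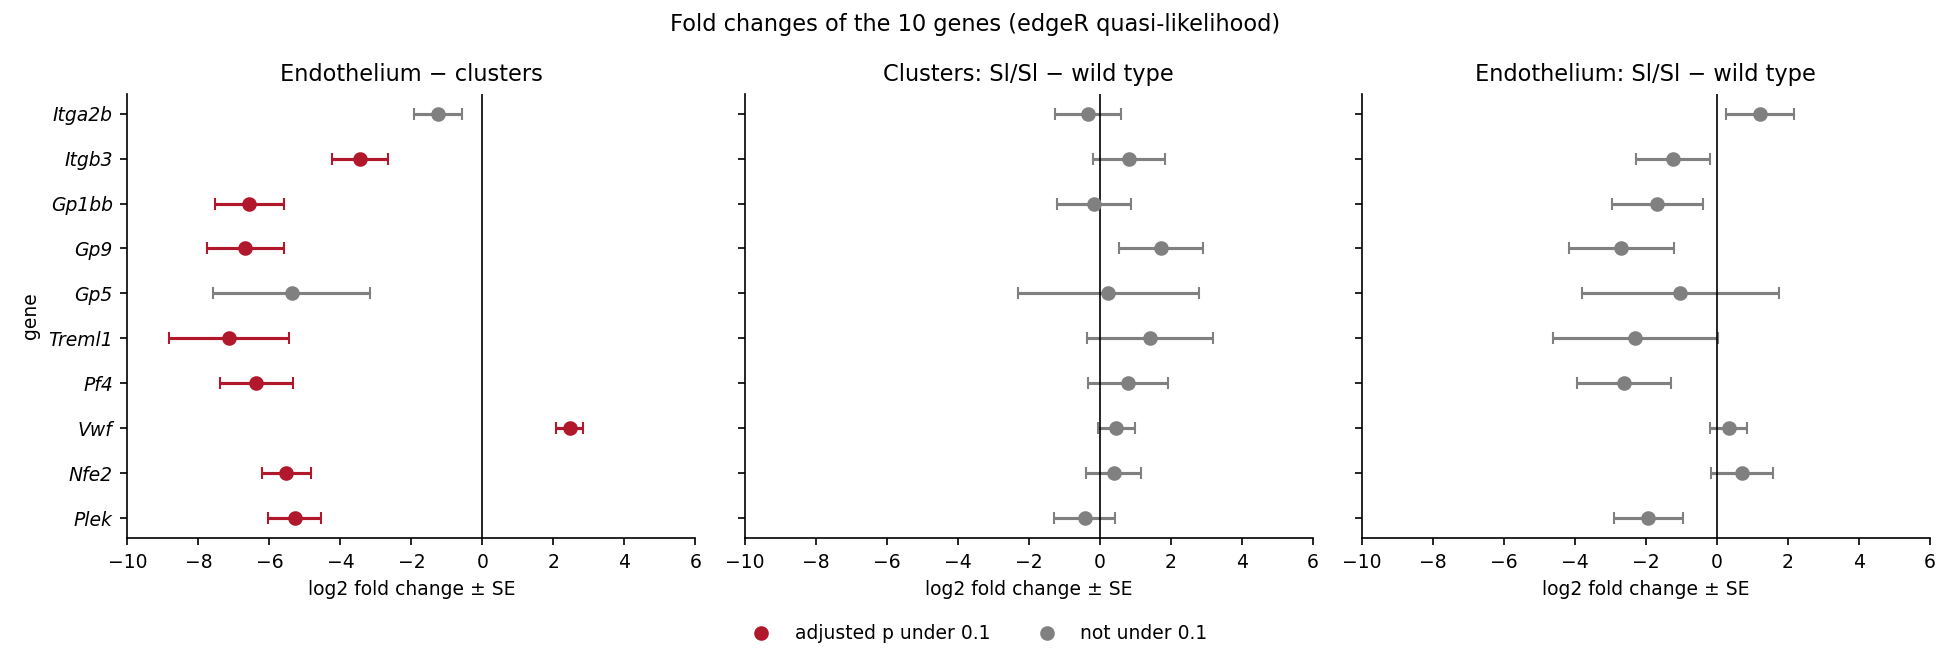
Log2 fold changes of the 10 genes with their standard errors for endothelium minus clusters and for Sl/Sl minus wild type in each cell type, from edgeR's quasi-likelihood test. Red points have an adjusted p under 0.1, which holds for 8 genes in the left panel and for 0 in the other panels.

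The second comparison asked what the loss of Kit ligand does to these genes within a cell type. In clusters, 0 of the 10 genes passed between Sl/Sl and wild type by the edgeR test, as for all genes (0% passed), and 0 of the 10 had an unadjusted p under 0.05, against 587 of all genes tested. DESeq2 on the same libraries called 0 of the 10 genes and 175 genes in all. Itgb3 (log2 fold change 0.83, SE 1.01) and Gp9 (1.73, SE 1.18) had both Sl/Sl libraries above both wild type libraries, as had 16.4% of all genes tested. No gene of the 10 had both Sl/Sl libraries below both wild type libraries, as 16.3% of all genes did. The others overlapped, with values of 0.81 (SE 1.12) for Pf4, 1.42 (SE 1.78) for Treml1, 0.24 (SE 2.55) for Gp5, 0.47 (SE 0.52) for Vwf, 0.40 (SE 0.78) for Nfe2, -0.15 (SE 1.04) for Gp1bb, -0.33 (SE 0.94) for Itga2b and -0.41 (SE 0.86) for Plek. For 8 of the 10 genes the sign of the difference turned when 1 library or another was left out, and Gp9 and Itgb3 were the exceptions. The mean level of Gp9 was 8.40 ± 3.96 CPM in wild type and 27.9 ± 0.947 CPM in Sl/Sl clusters (SD, n = 2 each), and that of Pf4 was 228 ± 289 and 400.3 ± 409 CPM.

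In endothelium, 0 of the 10 genes passed between genotypes in edgeR's test (0% of all genes did), 0 had an unadjusted p under 0.05, against 580 of all genes, and DESeq2 called 0 of the 10 and 178 genes in all. Itga2b had both Sl/Sl libraries above both wild type ones (4.33 ± 0.165 against 10.1 ± 0.834 CPM, log2 fold change 1.23, SE 0.96, adjusted p = 1), as had 13.5% of all genes. Pf4 was counted 158 and 54 times in wild type against 10 and 18 times in Sl/Sl endothelium (log2 fold change -2.61, SE 1.32, adjusted p = 1). Gp1bb, with 10 and 8 counts against 4 and 1, Gp9, with 3 and 5 against 1 and 0, Gp5, with 3 and 2 against 1 and 1, and Treml1, with 2 and 4 against 1 and 0, had the same order at counts too low to give a fold. Pf4 and these genes, 5 in all, had both Sl/Sl libraries below both wild type ones, where 14.9% of all genes did. Gp1bb, Gp9, Gp5 and Treml1 entered the test through their cluster counts. Their order in endothelium is therefore not read as a difference between genotypes. With no filter on low counts, edgeR called Pf4 (-2.60) and Plek (-1.91) in this comparison, with adjusted p-values of 5.2e-06 and 0.0546. At nearly the same fold changes, their unadjusted p-values in the filtered edgeR fit were 0.0792 and 0.0757. Both calls therefore depend on the filter. The remaining members had log2 fold changes of -1.93 (SE 0.96) for Plek, -1.24 (SE 1.04) for Itgb3, 0.71 (SE 0.86) for Nfe2 and 0.34 (SE 0.52) for Vwf in the filtered data.

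The test of whether the genotype difference itself differed between clusters and endothelium passed for 0 of the 10 genes in edgeR (0% of all genes, 736 of which had an unadjusted p under 0.05), and DESeq2 called 0 of the 10 and 175 genes in all. Gp9 was the 1 gene of the group with an unadjusted p under 0.05 (log2 difference 4.42, SE 1.89, adjusted p = 0.902), a value that depends on endothelial counts too low to give a fold. Pf4 had a log2 difference of 3.42 (SE 1.74, adjusted p = 0.907), and the edgeR fit with no filter on low counts called it alone of the 10.

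Within clusters, the libraries of a genotype differed from each other more than the genotypes did for a subset of the genes. Pf4, Gp5, Treml1, Gp1bb and Plek were higher in the library numbered 2 than in the one numbered 1 in both genotypes (5 of 10 genes, where 25.4% of all genes tested were). Pf4 was 18.3 times higher in wild type and 6.19 times in Sl/Sl, Treml1 63.9 and 17.2 times, Gp1bb 6.37 and 5.59 times, and Plek 2.22 and 3.24 times, by CPM. Gp5 went from 0 to 158 counts and from 1 to 207. Itga2b, at 0.595 and 2.11 times, and Itgb3, at 0.732 and 1.24 times, had no shared direction. Vwf (0.345 and 0.401 times), Nfe2 (0.849 and 0.453 times) and Gp9 (0.500 and 0.953 times) were lower in number 2 in both genotypes (3 of 10 genes, where 23.9% of all genes tested were). A gap of over 2 on the log2 CPM scale in both genotypes, a limit chosen after the values were seen, was passed by Gp1bb, Gp5, Pf4 and Treml1 (4 of 10), by 7 of the 83 other platelet genes tested (8.43%) and by 3.51% of all genes. In endothelium 0 of the 10 genes had such a gap, where 1.49% of all genes did, so that 0 of 10 is near the share of all genes.

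The share of all genes tested with a wider gap between the 2 cluster libraries was 0.518% for Gp5 in wild type and 1.52% in Sl/Sl, 1.57% and 6.46% for Treml1, 5.39% and 13.3% for Pf4, and 13.3% and 14.2% for Gp1bb. Gaps of this width thus were rare for Gp5 and Treml1 and less so for Pf4 and Gp1bb. The 7 other platelet genes with the wide gap were Alox12, Cd226, F2rl2, Gp6, Ppbp, Thbs1 and Tubb1, named after their values were seen. The list did not move as a whole. Of its 83 genes tested, 39 (47%) were higher in number 2 in both genotypes, against 25.4% of all genes. Another 17 (20.5%) were lower in both, against 23.9% of all genes. Gp6, the collagen receptor of platelets, had 0 and 375 counts in wild type clusters, 2 and 417 in Sl/Sl clusters and 0 in all 4 endothelial libraries. Tubb1, the tubulin chain of the platelet's marginal band, had 0 and 158 counts in wild type clusters and 1 and 227 in Sl/Sl clusters. Ppbp, the pro-platelet basic protein chemokine, had 140 and 6612 counts in wild type clusters and 574 and 10588 in Sl/Sl clusters. Gp6, Tubb1 and Gp5 were thus present at over 100 counts in both cluster libraries numbered 2 and at 2 or fewer in both numbered 1.

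**Figure D3:**
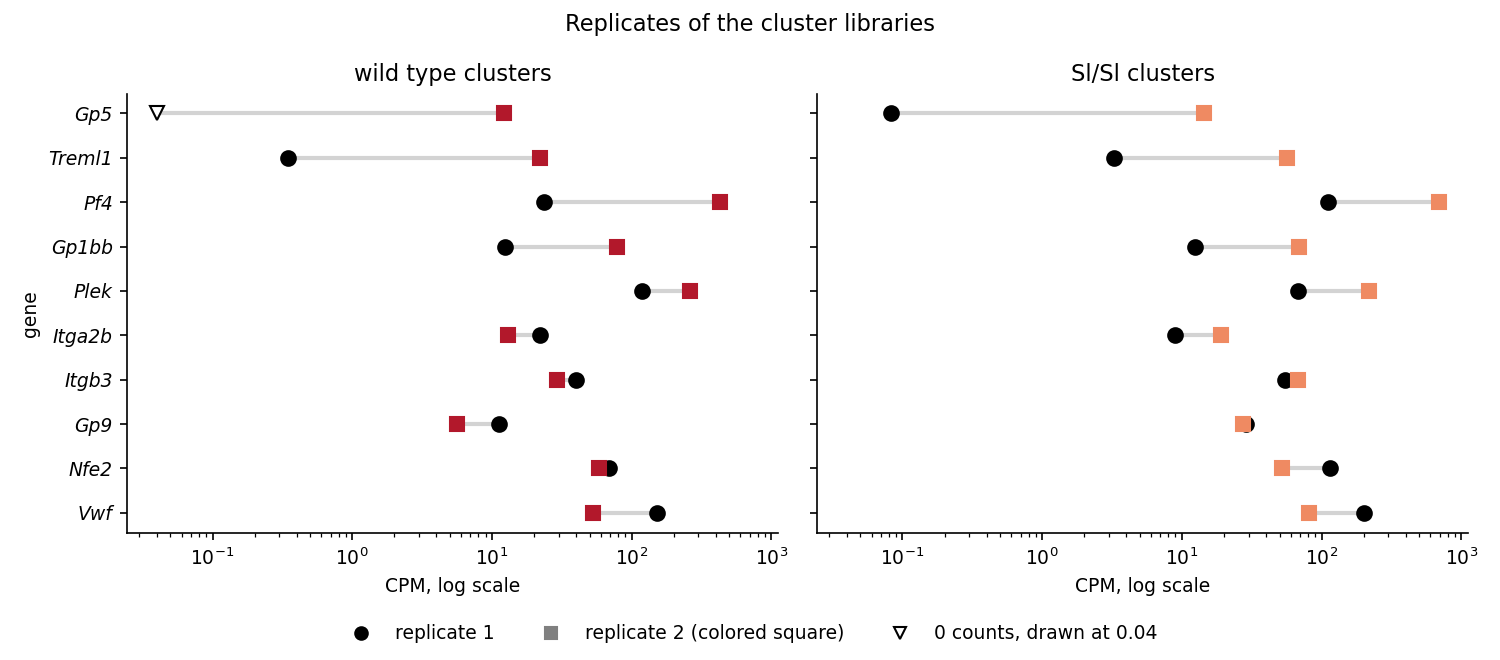
CPM (log scale) of the 10 genes in the 2 cluster libraries of each genotype, with black circles for replicate 1, colored squares for replicate 2, an open triangle for 0 counts and a grey line for the gap. Gp5, Treml1, Pf4 and Gp1bb are higher in replicate 2 in both panels, and Vwf is lower, at 52.6 and 81.2 CPM against 153 and 202.

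Other marker lists moved with the same libraries, and their part in the result was not tested. The megakaryocyte-defining list (10 genes, of which Pf4, Gp1bb, Gp9, Gp5 and Itga2b are described here) summed to 149 and 1153 CPM in wild type clusters and 265 and 1667 in Sl/Sl clusters, with 3 of its 10 genes at 0 in wild type clusters replicate 1 (Gp5, Gp6 and Tubb1). In endothelium it summed to between 11.99 and 34.6 CPM. Without Pf4 and Ppbp, its other 8 genes summed to 113 and 205 CPM in wild type clusters and 106 and 239 in Sl/Sl clusters. The neutrophil and mast cell list summed to 578 and 2639 CPM in the wild type and 983 and 1756 in the Sl/Sl cluster libraries. Cpa3, a mast cell protease, made up most of that gap, at 308 and 1875 CPM in wild type clusters and 35.95 and 918 in Sl/Sl clusters. The other 9 genes of the list summed to 269 and 764 CPM in wild type clusters and 947 and 838 in Sl/Sl clusters, so without Cpa3 the list was not higher in number 2 in both genotypes. Cpa3 and the 2 chemokines were set apart after their values were seen. The endothelial list was lower there, at 1202 and 429 CPM in the wild type and 2800 and 763 in the Sl/Sl cluster libraries, the direction that Vwf took. The mesenchymal list summed to 5578 CPM in Sl/Sl clusters replicate 2 and to between 410.0 and 1216 CPM in the other cluster libraries. The macrophage list summed to between 704 and 1246 CPM in clusters and between 8.66 and 37.0 in endothelium, and the erythroid list to between 24.4 and 266 CPM in clusters.

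**Figure D4:**
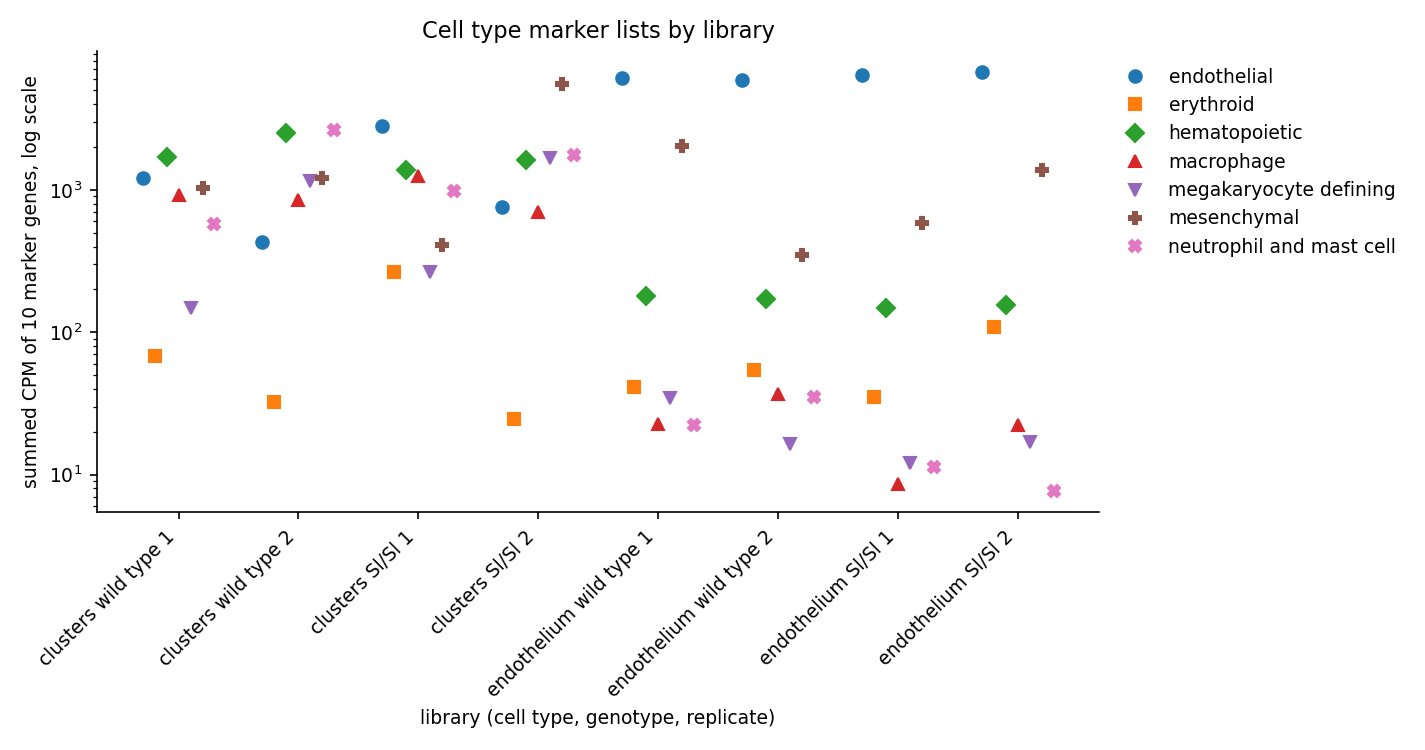
Summed CPM (log scale) of 10 marker genes for each of 7 cell types in the 8 libraries. The megakaryocyte-defining genes (triangles pointing down) reach 1153 and 1667 CPM in the cluster libraries numbered 2 and stay at 149 and 265 CPM in those numbered 1.

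Promoter windows were read for the genes that were higher in the cluster libraries numbered 2 and for those that were not. RefSeq windows (GRCm38.p6, a later build than the mm9 of the counts) of 300 bases around the start site were found for 7 of the 10 genes, and Itgb3, Vwf and Nfe2 had none. Exact letters of 4 motifs were searched on both strands. The letters AGATAA, bound by GATA factors, occur in 11.16% of all 32544 windows of this length in the table. The letters AGGAAG, a core of ETS factors such as Fli1, occur in 35.13%. Those of NF-E2, TGAGTCA, occur in 5.193%, and those of RUNX factors, TGTGGT, in 16.68%. Pf4 (chr5:90772185-90772484, plus strand) and Gp5 (chr16:30310732-30311031, minus strand) are shown as genes that were higher in number 2, and Gp9 (chr6:87777820-87778119, plus strand) and Itga2b (chr11:102469834-102470133, minus strand) as genes that were not, each from 5′ to 3′ on the gene's strand with the matches in capitals.
Pf4: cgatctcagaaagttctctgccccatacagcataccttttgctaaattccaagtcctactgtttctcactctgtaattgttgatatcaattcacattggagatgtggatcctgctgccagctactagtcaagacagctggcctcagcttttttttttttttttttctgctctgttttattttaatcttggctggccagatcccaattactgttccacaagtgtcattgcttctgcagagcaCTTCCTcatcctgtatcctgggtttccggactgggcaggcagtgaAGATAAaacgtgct
Gp5: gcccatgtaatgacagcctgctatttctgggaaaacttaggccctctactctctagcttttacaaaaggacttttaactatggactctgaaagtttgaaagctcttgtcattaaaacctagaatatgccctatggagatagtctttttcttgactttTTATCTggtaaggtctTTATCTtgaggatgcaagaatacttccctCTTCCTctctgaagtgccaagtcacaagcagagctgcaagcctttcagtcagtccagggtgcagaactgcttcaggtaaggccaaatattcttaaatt
Gp9: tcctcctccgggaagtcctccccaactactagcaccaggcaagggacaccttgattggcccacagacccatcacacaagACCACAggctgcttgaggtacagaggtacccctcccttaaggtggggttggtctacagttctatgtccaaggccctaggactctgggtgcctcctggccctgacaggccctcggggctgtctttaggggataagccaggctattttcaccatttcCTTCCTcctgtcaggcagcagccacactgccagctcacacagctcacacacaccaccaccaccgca
Itga2b: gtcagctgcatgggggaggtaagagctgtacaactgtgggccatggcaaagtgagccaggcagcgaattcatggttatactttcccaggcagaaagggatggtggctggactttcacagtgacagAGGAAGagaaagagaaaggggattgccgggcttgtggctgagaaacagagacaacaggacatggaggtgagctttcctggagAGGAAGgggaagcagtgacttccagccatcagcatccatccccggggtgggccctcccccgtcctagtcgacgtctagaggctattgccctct
Pf4 held the GATA letters at 36 bases after the start and the ETS letters at -9, and Gp5 held the GATA letters on the reverse strand at -93 and -77 and the ETS letters at -48. Gp9 held the ETS letters at -16 and the RUNX letters at -171, and Itga2b the ETS letters at -125 and -43. Gp1bb held the ETS letters at 20, and Treml1 and Plek held none of the 4. So the GATA letters were in Pf4 and Gp5, and the other 5 windows had none. Gp1bb, Treml1 and Plek, which were also higher in number 2, are among those without them. The windows shown for genes higher in number 2 are thus the ones with a GATA match. These are matches of letters, not sites of binding.

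Other genes of platelet biology were followed as a list of 86, of which 83 were tested (Clec2l, Slamf1 and Mmrn1 were not). Between cell types, 37 were lower (44.6%, against 8.12% of all genes tested) and 10 were higher in endothelium (12%, against 8.48%), and the list's median log2 fold change was -0.94, against -5.45 for the 10 genes and -0.07 for all genes. Among surface receptors, 8 of 17 were lower, such as P2rx1, an ATP-gated channel (-5.61, SE 0.62), P2ry12, the ADP receptor (-7.46, SE 1.397), and Cd84, an adhesion receptor of leukocytes and platelets (-7.23, SE 1.43). In the same role 4 were higher in endothelium, namely F2r, the thrombin receptor PAR1 (1.50, SE 0.30), the tetraspanin Cd9 (0.79, SE 0.18), the laminin receptor chain Itga6 (1.13, SE 0.27) and Itga2, the collagen receptor chain (6.16, SE 1.45). P2ry12 had at most 1 count and Cd84 at most 4 in an endothelial library. Itga2 had 0 and 0 counts in wild type clusters and 29 and 2 in Sl/Sl clusters. Such counts are too low to give a fold. Genes like these entered the test through 1 cell type, so a call could hardly take the other direction. The 37 lower and 10 higher genes include some of them. Genes listed as surface receptors therefore lay on both sides of the comparison.

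Among granule proteins, 7 of 17 were lower in endothelium, with Srgn, the granule proteoglycan serglycin (-2.14, SE 0.38), Ppbp (-9.58, SE 1.74), F13a1, the coagulation factor XIII A chain (-6.63, SE 1.39), and F5, factor V (-3.87, SE 0.88), as the 4 with the smallest p. Sparc (1.91, SE 0.26), Timp3 (1.93, SE 0.26) and Pdgfb (1.76, SE 0.56), whose proteins endothelial cells also secrete, were higher. Of the transcription factors, 7 of 15 were lower and 0 higher, among them Runx1 (-6.04, SE 0.30), Myb (-5.69, SE 0.35), Gfi1b (-5.09, SE 0.58) and Ikzf2 (-3.26, SE 0.41). Runx1, required for blood cells to arise from endothelium, had between 1481 and 2108 counts in each cluster library and between 17 and 30 in each endothelial one, a far narrower spread than that of Pf4. Gata1, an erythroid and megakaryocyte factor, did not pass (-3.49, adjusted p = 0.110), with 17 and 153 counts in wild type clusters and 62 and 236 in Sl/Sl clusters. Of the signaling proteins, 12 of 21 were lower, such as Rgs18 (-7.19, SE 0.54) and Rgs10 (-3.34, SE 0.46), which dampen G protein signals, Fcer1g, the Fc receptor chain through which Gp6 signals (-5.84, SE 0.50), and Bin2 (-6.83, SE 0.61), and the G protein subunit Gng11 was higher (1.92, SE 0.39). Of the cytoskeletal genes, 3 of 13 were lower, the tubulins Tuba4a (-5.89, SE 0.37) and Tuba8 (-4.80, SE 0.98) and the actin regulator Was (-5.38, SE 0.85), and tropomyosin 4, Tpm4 (1.17, SE 0.12), and filamin A, Flna (0.64, SE 0.19), were higher. Runx1, Myb, Rgs18, Fcer1g and Was are used by other blood lineages too.

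Between genotypes, 0 of the 83 genes passed in edgeR's test in either cell type, with 5 at an unadjusted p under 0.05 in clusters and 5 in endothelium (6.02% in each, against 4.22% and 4.17% of all genes tested), and medians over the list of 0.12 on the log2 scale in clusters and -0.05 in endothelium. The smallest unadjusted p-values in clusters belonged to Sparc (1.50, SE 0.36, adjusted p = 0.500), Timp3 (1.20, SE 0.36, adjusted p = 0.897) and Tpm4 (0.56, SE 0.17, adjusted p = 0.917). Each of these 3 is among the genes that were higher in endothelium. The endothelial list summed to 2800 and 763 CPM in Sl/Sl clusters and to 1202 and 429 in wild type clusters, which overlap. In Sl/Sl clusters replicates 1 and 2, Sparc had 306 and 717 CPM and Timp3 61.9 and 108 CPM. Both were thus higher in the library where the endothelial list was lower. The mesenchymal list summed to 410 and 5578 CPM in these 2 libraries. Tpm4 had a mean of 675 ± 57.4 CPM in them (SD, n = 2). The part of endothelial or mesenchymal RNA in these values was not tested. In endothelium the smallest unadjusted p-values belonged to Ptgs1, cyclooxygenase 1 (1.87, SE 0.49), Tuba4a (-1.50, SE 0.48) and Myb (-1.39, SE 0.44), each with an adjusted p of 1. For the interaction they belonged to Ptgs1 (-2.39, SE 0.67), Sparc (1.53, SE 0.50) and Itga2, with adjusted p-values of 0.902, and Itga2 had 0 and 0 counts in wild type clusters, 29 and 2 in Sl/Sl clusters, 367 and 158 in the endothelium of wild type and 36 and 25 in that of Sl/Sl embryos.

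The genes most like Pf4 and Vwf over the 8 libraries were found by Pearson's r of log2 CPM, as a description, since the libraries share 2 cell types that set most of each pattern. For Pf4 they were Morc3 (0.983), Ppbp (0.981), Ssbp3 (0.980), Gata1 (0.977) and Cd7 (0.976). Ppbp moved over a range like that of Pf4, from 12.1 and 514 CPM in wild type clusters and 47.1 and 739 in Sl/Sl clusters to 5.48 CPM or less in endothelium, while Morc3 stayed between 40.0 and 100.3 CPM. For Vwf they were Ptprb (0.995), Ctnnd1 (0.992), Stx12 (0.992), Plekha1 (0.991) and Tspan9 (0.991). Ptprb, an endothelial phosphatase, had 98.6 and 17.9 CPM in wild type clusters and 133 and 37.2 in Sl/Sl clusters, so that it too was lower in the libraries numbered 2.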

How the data were processed

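RNA was measured by Smart-seq2 in 8 libraries, 2 for each of 4 groups taken from the sample labels. The authors aligned reads to mm9 with STAR 2.4.2a and counted them on genes with featureCounts of Subread 1.4.5. The table they deposited holds counts of reads on each gene, not normalized, beside exon coordinates and lengths. The annotation, the strand setting and what was done with multi-mapping reads are not given in the sources used here, so overlapping and near-identical genes may share reads. The study calls its replicates biological, from pools of 1 to 4 embryos in 2 sorting experiments, and does not say which library came from which. The p-values measure the spread between these libraries.

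Counts were tested with edgeR 4.0.16 (quasi-likelihood, TMM factors, filterByExpr on the 4 groups) and limma 3.58.1 in R 4.3.3 on all 8 libraries, with Benjamini-Hochberg adjustment over 13908 genes and a threshold of 0.1. The common dispersion was 0.667, with 4 residual and 5.24 prior degrees of freedom. The SE was the fold change divided by the root of F. CPM used TMM-scaled totals, RPKM plain totals, and log2 CPM a prior count of 2. An exact two-sided permutation test of 2 against 2 libraries cannot go below p = 0.333. A count of 0 allows up to 3 counts, and intervals (95%, exact binomial) cover counting error only, since PCR copies are not independent molecules. Alternatives were DESeq2 1.42.0, RLE size factors, other filters and thresholds, 4 libraries of a cell type, the replicate number as a block, and leaving out each library. A block within each cell type and leaving out both cluster libraries numbered 2 were chosen after seeing the data. The scripts were tested on simulated data.

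The 10 genes, the lists and the tests were chosen with earlier results of these data known. Named are the 10 genes, of the other platelet genes at most 4 per role and direction that passed between cell types by smallest p, the 3 of smallest p in each comparison of genotypes, and the 5 genes most like Pf4 and Vwf. A gene that this rule also named is not reported here. Promoters are from RefSeq and do not share the build of the counts.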

Additional observations from a re-analysis of the deposited data

Results flagged for a closer look

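Gp9 had both Sl/Sl libraries above both wild type libraries in clusters and below them in endothelium. Its counts in clusters were 130 and 72 (wild type) against 348 and 390 (Sl/Sl), and those in endothelium 3 and 5 (wild type) against 1 and 0 (Sl/Sl). Gp9 passed between genotypes in neither cell type (adjusted p = 1 in both, edgeR's quasi-likelihood test). The fitted difference between the 2 genotype effects was 4.42 on the log2 scale (SE 1.89), and its test did not pass either (adjusted p = 0.902 in edgeR). The endothelial counts are near the 3 counts that a count of 0 allows and too low to give a fold, and the fitted difference depends on them.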

How the results depend on the processing

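Between cell types 8 of the 10 genes passed, and 9 did with DESeq2 or with no filter on low counts, 8 with RLE size factors or the replicate block, 6 with a replicate block within each cell type or in Sl/Sl libraries only, 5 in wild type libraries only, and 3 of the 4 that kept at least 10 counts in every library. The genes called in all were 2310, against 3614 with DESeq2, 1488 at an adjusted p under 0.05, 972 with the block within each cell type, 1146 in wild type only, 393 in Sl/Sl only and 1311 without both cluster libraries numbered 2. Between genotypes in clusters 0 genes passed, against 175 with DESeq2, 253 with no filter, 9 with the stricter filter, 8 with the replicate block, 57 with the block within each cell type and 55 without both cluster libraries numbered 2. In endothelium 0 passed, against 178 with DESeq2, 65 with no filter, 2 on the 4 endothelial libraries and 2 without both cluster libraries numbered 2, and the interaction went from 0 to 175, 179 (no filter), 21 (block within each cell type) and 20 (without those libraries). Of the 10 genes, no filter called 2 in endothelium and 1 in the interaction. The cause of these moves was not tested. Signs turned for Gp5 between cell types with the block within each cell type (1.80), and without both cluster libraries numbered 2 for Gp1bb in clusters (0.00101) and Nfe2 in the interaction (0.0388). Of the RPKM means, 3 moved by more than 1 SD with TMM-scaled totals and 37 did not. Deviations of libraries with the same number correlated at 0.157 between the wild type and Sl/Sl clusters and at -0.111 between Sl/Sl clusters and wild type endothelium. In the other 4 pairs of groups they lay between -0.012 and 0.026. These values do not show the libraries to be pairs. Whether cluster libraries of the same number share a sorting experiment is not given and was not tested.

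Leaving out each library gave 1563 to 2087 genes between cell types, 6 to 76 (76 without wild type clusters replicate 1) between genotypes in clusters, 0 to 1 in endothelium and 0 to 27 for the interaction, and 7 to 9 of the 10 genes between cell types and 0 otherwise. The log2 fold changes that turned sign ran in clusters from -0.97 to 0.11 for Itga2b, -1.87 to 1.72 for Gp1bb, -6.05 to 9.40 for Gp5, -1.76 to 6.39 for Treml1, -1.03 to 4.08 for Pf4, -0.33 to 1.43 for Vwf, -0.28 to 0.86 for Nfe2 and -1.50 to 0.27 for Plek. In endothelium they ran from -3.16 to 0.79 for Itgb3 and -1.35 to 1.49 for Nfe2, and for the interaction from -0.19 to 3.41 for Gp1bb, -5.02 to 10.43 for Gp5, -0.67 to 1.09 for Vwf, -1.06 to 1.74 for Nfe2 and -0.37 to 2.69 for Plek. A group left with 1 library was assumed to vary like the others.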
